A study of Homo sapiens with 12 samples.

Results

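ABCA1 and 6 other genes of the liver X receptor (LXR) route of cholesterol efflux were described in LNCaP cells, an androgen-responsive line derived from a prostate cancer metastasis. The genes were taken by name: the efflux transporters ABCA1 and ABCG1, the receptors NR1H3 and NR1H2, the ubiquitin ligase MYLIP, the high density lipoprotein receptor SCARB1 and the apolipoprotein APOE. All 7 were present among the 34643 gene symbols of the count table. The names were chosen by reading earlier results of these data, in which levels and differences of all genes between the groups were known, and a gene near 0 was set aside on its level. Every level and difference of these genes therefore counts as used and is given as a description. The number of them past the limits of the whole-table test is given once, to place them among all genes, and is no evidence about them. In all, 6 of the 7 passed the filter on low counts, as did 15419 genes of the whole table, and APOE did not.

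The 12 RNA-seq libraries formed 4 groups of 3. Cells labelled shScramble carried a scrambled control short hairpin RNA (shRNA), and cells labelled shTMEFF2 carried an shRNA against TMEFF2, a transmembrane protein of prostate cells. Both were expressed from the U6 promoter of a pLKO.1-puro lentivirus, and both lines went through puromycin selection. About 2.5 weeks after transduction all cells were held for 24 h in medium with 10% charcoal-stripped serum, which is low in steroid hormones. They then received 10 nM dihydrotestosterone (DHT), the main agonist of the androgen receptor in the prostate, or ethanol vehicle for 24 h, which gave the groups shScramble DHT-, shScramble DHT+, shTMEFF2 DHT- and shTMEFF2 DHT+. The 3 libraries of a group came from independent treatments and extractions, but from only 2 transductions, so p-values measure the spread between these libraries. All cells were of 1 line, and the TMEFF2 shRNA that the sequenced cells carried is not named in the labels, so the effect of TMEFF2 cannot be told apart from other effects of that shRNA.

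Cells cannot break down the sterol ring and export surplus cholesterol instead. LXRs are nuclear receptors that bind oxysterols, the oxidised forms of cholesterol that build up with cholesterol load, and with a retinoid X receptor they activate genes that carry a DR4 element, a direct repeat of a hormone receptor half-site with a spacer. ABCA1 loads cholesterol and phospholipid onto lipid-poor apolipoprotein A-I, and ABCG1 passes cholesterol on to high density lipoprotein particles. MYLIP, also called IDOL, tags lipoprotein receptors for degradation and so lowers uptake. Prostate cells use cholesterol as a membrane component and as the precursor of steroids, and the opposing arm, synthesis and uptake, is run by the SREBP factors.

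The promoter of ABCA1 is shown because ABCA1 had the widest range of levels among these genes and because its window is where LXR is known to act. The window of RefSeq on GRCh38.p14, chr9:104928106-104928405 on the minus strand, runs 5′ to 3′ from 250 bases before the transcription start to 50 bases after it. The capitals mark its DR4-like element, 69 to 54 bases before the start, which on the opposite strand reads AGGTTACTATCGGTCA.
ABCA1: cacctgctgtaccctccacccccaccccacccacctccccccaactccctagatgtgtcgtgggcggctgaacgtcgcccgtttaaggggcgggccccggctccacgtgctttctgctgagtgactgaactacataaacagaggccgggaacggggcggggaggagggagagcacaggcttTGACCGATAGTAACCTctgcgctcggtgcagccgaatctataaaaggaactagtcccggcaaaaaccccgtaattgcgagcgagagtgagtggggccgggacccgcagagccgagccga
Motifs were searched on both strands in the 35116 RefSeq windows of this length. The DR4 consensus, AGGTCA repeated after the spacer NNNN, was in 0.0199% of all windows and not in that of ABCA1. A loosened form, AGGTNA followed by NNNNN and GGTCA, was written so as to admit the known ABCA1 element, so its match there is no finding. It was in 33 windows, 0.094% of all. Of the 7 genes, 5 had a window (ABCG1 and SCARB1 did not), and among these ABCA1 alone held the loosened form. The androgen receptor element, AGAACA followed by NNN and TGTTCT, was in 0.00285% of all windows and in none of the 5 genes, which says only that these letters are not within these windows. Its half-site AGAACA was in 14.8% of all windows and, among the 5 genes, in 1 window of APOE. The E-box CACGTG was in 7.26% of all windows and in that of ABCA1, outside the capitals.

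The window of SREBF2, which encodes the SREBP factor of cholesterol synthesis, is shown beside it because the genes of that arm are set against ABCA1 later on. It lies at chr22:41832855-41833154 on the plus strand of GRCh38.p14, and the capitals mark its sterol regulatory element, 134 to 125 bases before the start. The letters in capitals were the motif searched, which was in 16 windows, 0.0456% of all.
SREBF2: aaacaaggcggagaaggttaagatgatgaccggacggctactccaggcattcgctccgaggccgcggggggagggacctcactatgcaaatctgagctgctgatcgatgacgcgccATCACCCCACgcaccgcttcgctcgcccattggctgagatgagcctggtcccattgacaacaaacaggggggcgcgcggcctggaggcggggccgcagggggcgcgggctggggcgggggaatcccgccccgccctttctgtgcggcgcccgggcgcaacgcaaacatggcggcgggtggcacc

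Levels are CPM, counts scaled to a common library size after TMM normalization, which are not scaled by gene length and are therefore compared only within a gene. Libraries held 19450866 to 22612046 counts. TMEFF2 averaged 85.0 ± 16.0 CPM (SD, n = 3) in shScramble DHT- and 63.2 ± 21.7 CPM in shTMEFF2 DHT-, and 153 ± 31.4 CPM in shScramble DHT+ and 115.6 ± 26.0 CPM in shTMEFF2 DHT+. The libraries of the lines overlapped at both DHT levels, and neither difference passed edgeR's quasi-likelihood test (log2 -0.43, SE 0.25, adjusted p = 0.503 and log2 -0.41, SE 0.25, adjusted p = 0.304), so the groups are named here by their labels. All 7 luminal prostate markers looked up were tested, and KLK3, the prostate specific antigen, averaged 1925, 7495, 356 and 1949 CPM in shScramble DHT-, shScramble DHT+, shTMEFF2 DHT- and shTMEFF2 DHT+. FKBP5, a chaperone gene induced by the androgen receptor, averaged 63.5, 661, 60.7 and 112 CPM in the same order.

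ABCA1 lies at chr9:104781006-104928155 on the minus strand (GRCh38, GENCODE 44) and has 50 exons in its canonical transcript. Its level was 5.0, 8.44 and 6.74 CPM in the 3 libraries of shScramble DHT- and 0.681, 0.617 and 0.539 CPM in those of shScramble DHT+. In the shTMEFF2 line it was 19.2, 11.9 and 10.6 CPM at DHT- and 13.0, 10.2 and 6.07 CPM at DHT+. The 3 libraries of shScramble DHT+ stood alone at the bottom, on 10.8 to 13.5 estimated counts each, while the shTMEFF2 libraries at DHT+ reached the range of the untreated cells of both lines. The group means were 13.9 ± 4.62 CPM in shTMEFF2 DHT-, 9.78 ± 3.51 in shTMEFF2 DHT+, 6.73 ± 1.72 in shScramble DHT- and 0.612 ± 0.0711 in shScramble DHT+ (SD, n = 3). Neighbours in this order overlapped, except that shScramble DHT+ was below all others, and the highest mean was 22.7 times the lowest.

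In shScramble cells ABCA1 was 10.8-fold lower with DHT (log2 -3.44, SE 0.38), and no library of either group overlapped with the other. In shTMEFF2 cells it was 1.42-fold lower (log2 -0.51, SE 0.28), and the libraries overlapped. Without shTMEFF2 DHT- replicate 1, the highest library of ABCA1, this value was -0.20, and without shTMEFF2 DHT+ replicate 1 it was -0.77. The difference between the responses of the lines was 2.93 (SE 0.48), and leaving out any 1 library kept it between 2.67 and 3.23. Set against shScramble at the same DHT level, ABCA1 was 2.07-fold higher in shTMEFF2 at DHT- (log2 1.05, SE 0.29) and 15.8-fold higher at DHT+ (log2 3.98, SE 0.38), in both cases with no overlap. The value at DHT- was 0.75 without shTMEFF2 DHT- replicate 1. These comparisons share groups: the DHT+ libraries of shScramble enter the responses and the comparison of the lines alike.

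**Figure D1:**
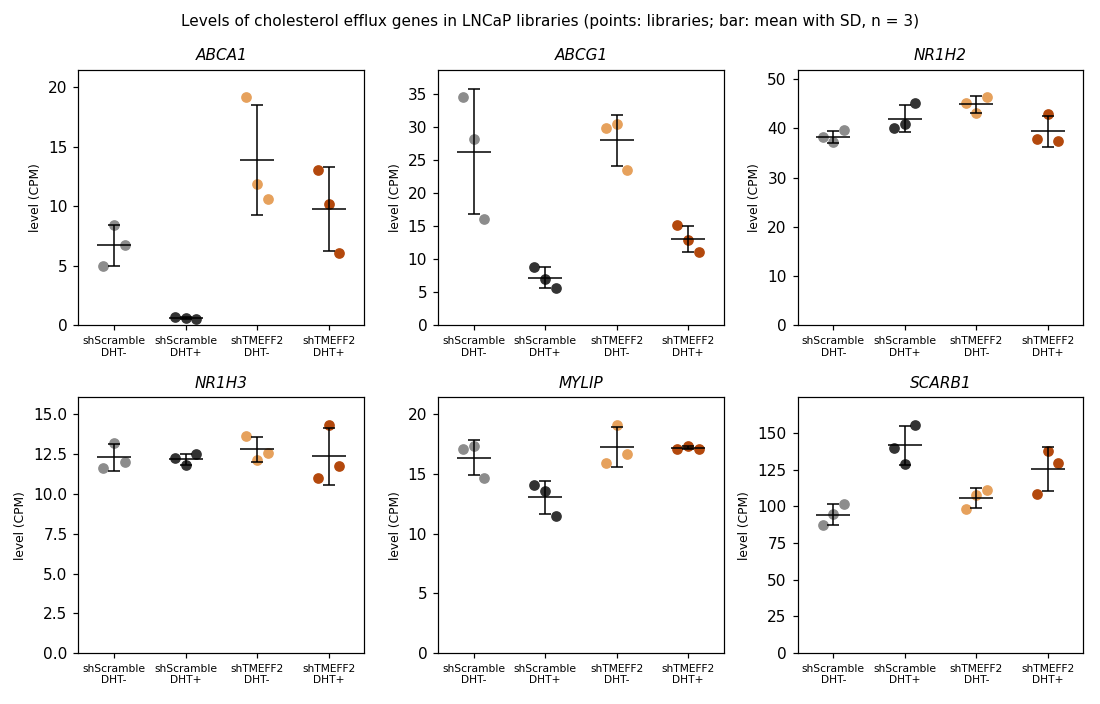
Level of each of the 6 genes that passed the filter in the 12 libraries (points, TMM-normalized CPM on a linear axis from 0, with its own scale for each gene) by group, with a bar for the mean and its SD (n = 3). ABCA1 sits between 0.539 and 0.681 CPM in shScramble DHT+ and at 5.0 CPM or above in every other library, while NR1H3 stays between 11 and 14.3 CPM throughout.

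The samples were cultures, and in such bulk RNA fewer cells of a type and less RNA per cell cannot be told apart. The summed level of fibroblast markers (3 of 5 tested, mostly COL1A1) was 21.7 to 22.4 CPM in shScramble DHT-, 13.0 to 14.1 in shScramble DHT+, 24.1 to 35.2 in shTMEFF2 DHT- and 17.1 to 21.4 in shTMEFF2 DHT+. That of macrophage markers (3 of 5 tested, mostly PTPRC) was 6.96 to 7.71, 5.94 to 6.13, 8.35 to 11 and 6.80 to 9.63 CPM in the same order. Both sums were lowest in shScramble DHT+ and highest in shTMEFF2 DHT-, as ABCA1 was, and their part in the result was not tested. Of the basal and neuroendocrine markers 2 of 5 were tested, and KRT5 was at 0 in all libraries. That list summed to 2.01 to 3.11, 4.00 to 5.66, 2.32 to 2.95 and 2.38 to 2.90 CPM in the same order. Unlike the fibroblast and macrophage sums, it was highest in shScramble DHT+. Luminal markers summed to 6415 to 6686, 12253 to 12977, 4247 to 4732 and 5046 to 6091 CPM in the same order.

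ABCG1, the transporter that acts on particles already loaded by ABCA1, lies at chr21:42199689-42297244 on the plus strand with 15 exons. It was at 34.6, 28.3 and 16.0 CPM in shScramble DHT- and at 8.85, 7.05 and 5.71 CPM in shScramble DHT+. In the shTMEFF2 line it was at 29.9, 30.5 and 23.6 CPM at DHT- and at 15.2, 12.9 and 11.1 CPM at DHT+. With DHT every library was below every untreated library of its line, and replicate 3 was the lowest of its group in all 4 groups. The order of the means was shTMEFF2 DHT- (28 ± 3.84 CPM), shScramble DHT- (26.3 ± 9.42), shTMEFF2 DHT+ (13.1 ± 2.02) and shScramble DHT+ (7.20 ± 1.57), and only the first pair of neighbours overlapped.

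ABCG1 was therefore lower with DHT in both lines, by 3.66-fold in shScramble (log2 -1.87, SE 0.25) and by 2.14-fold in shTMEFF2 (log2 -1.10, SE 0.24). The difference between these responses was 0.77 (SE 0.35), against 2.93 for ABCA1, and ranged from 0.52 without shScramble DHT- replicate 1 to 1.04 without shScramble DHT- replicate 3. At DHT- the lines overlapped, with a difference of 0.09 (SE 0.23), which was -0.16 without shScramble DHT- replicate 3 and 0.34 without shScramble DHT- replicate 1. At DHT+ ABCG1 was 1.82-fold higher in shTMEFF2 (log2 0.86, SE 0.25), with no overlap.

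**Figure D2:**
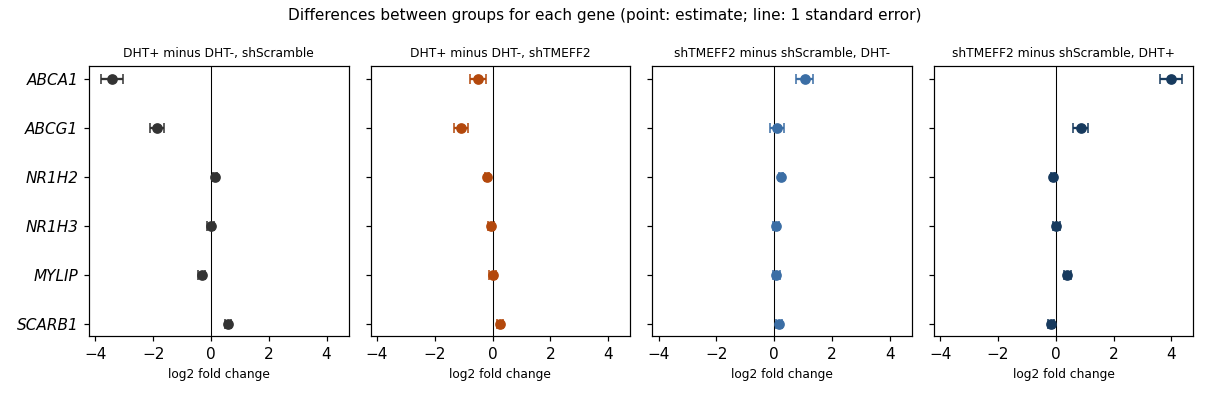
Log2 fold changes of the 6 genes (points, horizontal axis) in the 4 comparisons of groups, 1 panel each, with lines of 1 standard error. ABCA1 lies at -3.44 for DHT in shScramble and at 3.98 for shTMEFF2 at DHT+, ABCG1 is below 0 for DHT in both lines, and NR1H3 lies within 0.06 of 0 in every panel.

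The receptor genes had the narrowest ranges of level among the 6. NR1H3 encodes LXR alpha, the form that is abundant in liver and macrophages, and lies at chr11:47248300-47269033 on the plus strand with 10 exons. Its level was 11.7, 13.2 and 12 CPM in shScramble DHT-, 12.2, 11.8 and 12.5 in shScramble DHT+, 13.7, 12.2 and 12.6 in shTMEFF2 DHT- and 11, 14.3 and 11.7 in shTMEFF2 DHT+. All groups overlapped with their neighbours in the order of means, which ran only from 12.2 to 12.8 CPM. Its log2 differences were -0.01 (SE 0.12) and -0.05 (SE 0.12) for DHT in shScramble and shTMEFF2, and 0.06 (SE 0.12) and 0.02 (SE 0.12) for shTMEFF2 at DHT- and DHT+. NR1H3 overlaps ACP2 on the opposite strand, and the estimated counts do not show from which strand a read came, so its level is uncertain to that extent.

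NR1H2 encodes LXR beta, the form found in most tissues, at chr19:50329653-50383388 on the plus strand with 10 exons. It measured 38.3, 37.2 and 39.6 CPM in shScramble DHT-, 40.0, 40.8 and 45.2 in shScramble DHT+, 45.2, 43.1 and 46.4 in shTMEFF2 DHT- and 37.9, 43.0 and 37.4 in shTMEFF2 DHT+. The shScramble libraries were all higher with DHT (log2 0.13, SE 0.075) and the shTMEFF2 libraries all lower (log2 -0.19, SE 0.075), so that the difference between the responses was -0.32 (SE 0.11). At DHT- the shTMEFF2 libraries were all above those of shScramble (log2 0.23, SE 0.075), and at DHT+ the lines overlapped (log2 -0.09, SE 0.075). The highest group mean was only 1.17 times the lowest. The NR1H2 locus overlaps 5 annotated genes on the opposite strand, among them NAPSA, with the same uncertainty, and ABCA1 and SCARB1 each overlap 1 unnamed gene on the opposite strand.

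MYLIP, at chr6:16129086-16148248 on the plus strand with 7 exons, is an LXR target that acts on uptake rather than efflux. Its level was 17.1, 17.3 and 14.7 CPM in shScramble DHT- and 14.1, 13.6 and 11.5 CPM in shScramble DHT+, against 15.9, 19.1 and 16.7 CPM in shTMEFF2 DHT- and 17.1, 17.4 and 17.1 CPM in shTMEFF2 DHT+. As for ABCA1 and ABCG1, the libraries of shScramble DHT+ were below all 9 others. The log2 difference with DHT was -0.33 (SE 0.11) in shScramble and -0.00 (SE 0.11) in shTMEFF2, and the difference between these was 0.33 (SE 0.16). At DHT+ MYLIP was 1.32-fold higher in shTMEFF2 (log2 0.40, SE 0.11), with no overlap, and at DHT- the lines overlapped (log2 0.07, SE 0.11).

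SCARB1, which encodes the scavenger receptor that takes up cholesterol esters from high density lipoprotein and also lets free cholesterol pass in both directions, lies at chr12:124776856-124882668 on the minus strand with 13 exons. It went the other way from the transporters: 87.0, 94.7 and 101 CPM in shScramble DHT-, 140, 129 and 156 CPM in shScramble DHT+, 97.9, 108 and 111 CPM in shTMEFF2 DHT- and 109, 138 and 130 CPM in shTMEFF2 DHT+. The libraries with DHT were all higher in shScramble, while in shTMEFF2 the lowest library with DHT lay within the untreated range. SCARB1 was 1.499-fold higher with DHT in shScramble (log2 0.58, SE 0.099), on the very edge of the fold limit of 1.5 used for calls, and 1.19-fold higher in shTMEFF2 (log2 0.25, SE 0.099). The difference between the responses was -0.34 (SE 0.14). The lines overlapped at both DHT levels, with log2 differences of 0.16 (SE 0.099) at DHT- and -0.17 (SE 0.098) at DHT+.

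APOE, which encodes an apolipoprotein that accepts exported cholesterol and is an LXR target in macrophages, lies at chr19:44905791-44909393 on the plus strand with 4 exons. It was near the limit of detection, at 2.41, 0 and 3.42 estimated counts in shScramble DHT-, 6.91, 2.30 and 6.05 in shScramble DHT+, 9.70, 4.19 and 6.03 in shTMEFF2 DHT- and 9.82, 2.01 and 4.59 in shTMEFF2 DHT+. The shTMEFF2 DHT- libraries were above those of shScramble DHT-, and all other groups overlapped. No library exceeded 0.467 CPM, and APOE did not enter the fit.

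Calls needed an adjusted p of 0.05 or less together with a change of 1.5-fold or more in either direction. The values of the 6 genes were known when they were chosen, so the following counts only describe where they lay in the whole table. For DHT in shScramble ABCA1 and ABCG1 were among the genes called lower (2 of 6), as were 6.45% of all genes tested. For DHT in shTMEFF2 it was ABCG1 (1 of 6), beside 1.6% of all genes called lower. For shTMEFF2 at DHT- edgeR called 0 of 6, beside 0.571% of all genes. There 2 of the 6 had an unadjusted p under 0.05 by edgeR, DESeq2 called 1, ABCA1, and limma-voom called 0. No share of all genes was taken for these last counts, so they do not place the 6 in the whole table. At DHT+ ABCA1 and ABCG1 were among the genes called higher (2 of 6), beside 3.03% of all genes. The difference between the responses, for which the adjusted p alone counted, placed ABCA1 among those called higher (1 of 6), beside 1.65% of all genes.

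Libraries without overlap were common in the whole table: 21.3% of all genes were higher and 20.5% lower in this way for DHT in shScramble, beside 2 higher and 3 lower of the 6, and 15.7% were lower for DHT in shTMEFF2, beside 2 lower of the 6. They made up 9.35% higher for shTMEFF2 at DHT-, beside 2 of the 6, and 15.5% higher at DHT+, beside 3 of the 6. The median log2 difference of the 6 genes was -0.17 for DHT in shScramble, -0.12 for DHT in shTMEFF2, 0.13 for shTMEFF2 at DHT- and 0.21 at DHT+. Over all genes it was -0.01, -0.02, -0.00 and 0.00. The genes were chosen with these results known, so nothing is read from these counts.

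The surroundings of these genes in the cholesterol economy were taken from 6 lists of 83 other genes, of which 64 were tested. The lists too were chosen with earlier results of these data known. Their counts, medians and adjusted p-values, here and below, therefore describe these genes and are no independent evidence about the lists. Of all genes tested, 5.45% rose and 6.45% fell with DHT in shScramble, 3.28% rose and 1.6% fell with DHT in shTMEFF2, 0.298% were higher and 0.272% lower in shTMEFF2 at DHT-, and 3.03% were higher and 3.74% lower at DHT+. The responses differed upwards for 1.65% and downwards for 3.29%. With DHT in shScramble cells 16 of the 64 rose and 6 fell, and the largest share came from the SREBP pathway, the factors and enzymes that make cholesterol. There 9 of 12 rose and 1 fell, with a median log2 difference of 1.10 against -0.01 for all genes tested. HMGCS1, which makes the precursor of mevalonate, rose from 162 to 516 CPM (log2 1.67, SE 0.13, adjusted p = 2.3e-06), and INSIG1 and FDFT1 rose by 1.40 and 1.36 on the log2 scale. INSIG2, a retention protein that holds SREBP back in the endoplasmic reticulum, was the 1 gene that fell (log2 -1.29, SE 0.13, adjusted p = 1.1e-05). SREBF2, named for its promoter, rose from 299.6 to 453 CPM (log2 0.60, SE 0.076, adjusted p = 9.3e-05). ABCA1 and ABCG1 were thus lower in the same libraries in which 9 of the 12 SREBP pathway genes were higher.

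In shTMEFF2 cells the SREBP list gave 1 call of 12 with DHT, INSIG1 (log2 0.62, SE 0.19, adjusted p = 0.049), with a list median of 0.40. By edgeR 8 of the 12 had an unadjusted p under 0.05. Upwards SQLE (log2 0.54, adjusted p = 0.0020), DHCR7 (0.38, 0.026), FDFT1 (0.45, 0.028) and HMGCS1 (0.45, 0.041) passed the adjusted p and missed only the fold limit. The same held downwards for INSIG2 (-0.42, 0.042). INSIG1 stayed past the threshold only without shScramble DHT- replicate 1, shScramble DHT- replicate 2 or shTMEFF2 DHT+ replicate 1. Leaving out any of the other 9 libraries raised its adjusted p to between 0.055 and 0.170. At DHT+, 6 of the 12 were called lower in shTMEFF2 than in shScramble and none called higher, with a median of -0.87. Downwards SCAP (log2 -0.58, adjusted p = 7.5e-05), DHCR7 (-0.52, 0.0033) and SREBF2 (-0.37, 0.0053) passed edgeR's adjusted p and missed only the fold limit. Upwards the same held for INSIG2 (0.54, 0.011). HMGCS1 was at 516 CPM in shScramble and 192 in shTMEFF2 (log2 -1.43), and INSIG1 differed by -1.05. At DHT- edgeR called 0 of 12, with 1 at an unadjusted p under 0.05, and DESeq2 and limma-voom called 0 each. The responses differed between the lines in 6 of 12 genes. For 5 the response was lower in shTMEFF2, among them SCAP, at log2 0.54 with DHT in shScramble and -0.01 in shTMEFF2. For INSIG2 the fall was smaller in shTMEFF2 (0.88, adjusted p = 0.013).

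**Figure D3:**
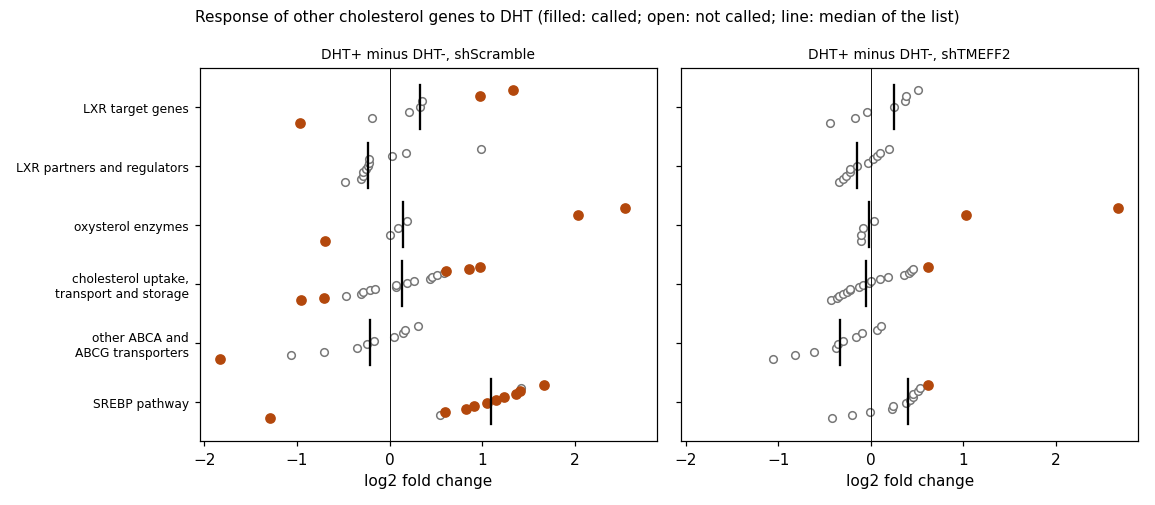
Log2 fold change with DHT (horizontal axis) in shScramble, left, and in shTMEFF2, right, for the 64 tested genes of the 6 pathway lists, 1 row per list, with filled points for called genes, open points for the others and a line at the median of the list. The SREBP pathway has its median at 1.10 in shScramble and at 0.40 in shTMEFF2, and 22 filled points on the left face 4 on the right.

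Other LXR target genes moved in both directions. Of 15 listed, 7 were tested and the rest, among them the lipid transfer and sterol transporter genes PLTP, ABCG5 and ABCG8, were below the filter. With DHT in shScramble 2 rose, the fatty acid synthase gene FASN (log2 1.34, SE 0.13, adjusted p = 8.6e-06) and the desaturase gene SCD (log2 0.98, SE 0.080, adjusted p = 2.7e-06), both of which SREBP also drives, and 1 fell, the glucose-sensing factor MLXIPL (log2 -0.97, SE 0.21, adjusted p = 0.0046). In shTMEFF2 edgeR called 0 of 7 with DHT, with 3 at an unadjusted p under 0.05 and 0 by DESeq2 or limma-voom. SCD (log2 0.38, adjusted p = 0.0084) and SMPDL3A (log2 0.51, adjusted p = 0.018) passed edgeR's adjusted p there and missed only the fold limit. At DHT+ FASN and SCD were lower in shTMEFF2 by -0.96 and -0.62, and SCD fell under the fold limit, at -0.56 each, without shScramble DHT+ replicate 3 or shTMEFF2 DHT+ replicate 1. At DHT- edgeR, DESeq2 and limma-voom called 0 of 7, with 0 at an unadjusted p under 0.05. SREBF1, named for its role as the LXR target that links LXR to fatty acid synthesis, averaged 357, 414, 379 and 369 CPM in shScramble DHT-, shScramble DHT+, shTMEFF2 DHT- and shTMEFF2 DHT+ and was not called in any comparison.

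Among partners and regulators of LXR, which include the retinoid X receptors and the NCOR and NCOA cofactors, 11 of 12 were tested. edgeR, DESeq2 and limma-voom called 0 of 11 in each of the 4 comparisons of groups, with 6 and 5 at an unadjusted p under 0.05 for DHT in shScramble and shTMEFF2 and 1 each for shTMEFF2 at DHT- and DHT+. Some passed edgeR's adjusted p and missed only the fold limit. For DHT in shScramble these were NCOA1 (log2 -0.48, adjusted p = 0.00015), RXRB (-0.23, 0.013), NCOA2 (-0.26, 0.023) and NRIP1 (-0.29, 0.033). For DHT in shTMEFF2 they were RXRB (-0.23, 0.028) and NCOA2 (-0.30, 0.021), and at DHT+ NCOA1 (0.34, 0.0039). The responses differed between the lines for 1, the coactivator NCOA1 (0.55, adjusted p = 0.0050). Of the enzymes that make or remove oxysterols and their relatives 6 of 10 were tested. CYP11A1, which cleaves the cholesterol side chain in the first step of steroid synthesis, was at 5.65 to 7.23 estimated counts a library in shScramble DHT- and 31.8 to 50.2 in shScramble DHT+, and at 2.03 to 4.20 in shTMEFF2 DHT- and 6.66 to 32.0 in shTMEFF2 DHT+. It passed the filter on low counts through its DHT+ libraries, so its rise, though called with DHT in both lines, is given by these counts only. CYP39A1, an oxysterol hydroxylase, fell with DHT in shScramble (log2 -0.70, SE 0.20, adjusted p = 0.023) and was higher in shTMEFF2 at DHT+ (log2 1.10, SE 0.20, adjusted p = 0.0027). The first of these calls was lost without shScramble DHT- replicate 1 or 2 or shScramble DHT+ replicate 1 or 2, with adjusted p of 0.070, 0.052, 0.072 and 0.056. At DHT- edgeR called 0 of 6, with 1 at an unadjusted p under 0.05, and DESeq2 and limma-voom called 0.

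Of the genes of cholesterol uptake, transport and storage 18 of 22 were tested. With DHT in shScramble 3 rose, among them the lipoprotein receptor gene VLDLR (log2 0.86, SE 0.14, adjusted p = 0.00049) and SOAT1, which esterifies cholesterol for storage (log2 0.60, SE 0.10, adjusted p = 0.00078). SOAT1 was under the fold limit without shScramble DHT- replicate 1 (0.56), shScramble DHT+ replicate 1 (0.53) or shScramble DHT+ replicate 2 (0.57), with scaling to library size alone (0.53), and with only genes above a mean of 5 CPM (0.58). The sterol carrier gene GRAMD1C fell (log2 -0.96, SE 0.11, adjusted p = 4.3e-05), as did the receptor gene LRP1 (log2 -0.71, SE 0.19, adjusted p = 0.0145), which was not called without shScramble DHT- replicate 3 (-0.45) or shScramble DHT+ replicate 2 (-0.61). Upwards LRP8 (log2 0.58, adjusted p = 0.00095), LIPA (0.51, 0.00015), NPC1 (0.46, 0.022) and OSBP (0.44, 0.0011) passed edgeR's adjusted p and missed only the fold limit. Downwards the same held for STARD3 (-0.31, 0.013). In shTMEFF2 1 gene was called higher, NCEH1, a cholesterol ester hydrolase (log2 0.62, SE 0.12, adjusted p = 0.0051), with 0.56 and 0.57 without shTMEFF2 DHT- replicate 2 or shTMEFF2 DHT+ replicate 2, under the fold limit. There LRP8 (log2 0.45, adjusted p = 0.012), SOAT1 (0.36, 0.035) and GRAMD1C (-0.43, 0.020) passed edgeR's adjusted p and missed only the fold limit. At DHT+ VLDLR (log2 -1.08, SE 0.14, adjusted p = 0.00017) and the sterol carrier gene STARD4 (log2 -0.74, SE 0.15, adjusted p = 0.0051) were called lower in shTMEFF2. OSBP (log2 -0.56, adjusted p = 0.00036), SOAT1 (-0.52, 0.0041) and LIPA (-0.29, 0.012) were lower and GRAMD1C (0.51, 0.0073) higher there. These passed edgeR's adjusted p and missed only the fold limit. At DHT- edgeR called 0 of 18, with 4 at an unadjusted p under 0.05, and DESeq2 and limma-voom called 0.

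Among other transporters of the ABCA and ABCG families 10 of 12 were tested, and ABCA12, a lipid transporter of the skin barrier, was the gene called for DHT in shScramble, for both comparisons of the lines and for the difference between the responses. It was at 24.5, 27.6 and 28.6 CPM in shScramble DHT-, 7.10, 8.78 and 6.80 in shScramble DHT+, 38.7, 57.6 and 45.4 in shTMEFF2 DHT- and 33.3, 42.3 and 39.3 in shTMEFF2 DHT+. As with ABCA1, the libraries of shScramble DHT+ were below all others. ABCA12 fell with DHT in shScramble (log2 -1.83, SE 0.16, adjusted p = 4.35e-06), and in shTMEFF2 edgeR called 0 of the 10, with 1 at an unadjusted p under 0.05 and 0 by DESeq2 or limma-voom. It was higher in shTMEFF2 by 0.81 at DHT- (SE 0.14, adjusted p = 0.021) and 5.06-fold higher at DHT+ (log2 2.34, SE 0.16, adjusted p = 1.9e-06). The call at DHT- was lost without shScramble DHT- replicate 1 (0.75, adjusted p = 0.10), shScramble DHT- replicate 2 (0.83, adjusted p = 0.081) or shTMEFF2 DHT- replicate 2 (0.64, adjusted p = 0.087). ABCA5 was lower in shTMEFF2 at DHT+ (log2 -0.67, SE 0.11, adjusted p = 0.0015).

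The genes whose profile was most like that of ABCA1 were sought among 11155 genes with a mean of at least 5 CPM, by the root mean square difference of log2 CPM over the 12 libraries, each gene centred on its own mean. The 5 nearest were UGT2B17 (0.504), LRRC31 (0.580), MID1 (0.583), SI (0.594) and MAN1A1 (0.599). UGT2B17 averaged 109, 20.5, 402 and 314 CPM in shScramble DHT-, shScramble DHT+, shTMEFF2 DHT- and shTMEFF2 DHT+, and it shares reads with close paralogs, so its level is uncertain. MAN1A1 averaged 12.6, 0.907, 20.4 and 8.34 CPM, and SI 27.4, 2.73, 30.2 and 18.5 CPM, in the same order. LRRC31 averaged 5.81, 0.669, 10.7 and 4.88 CPM and MID1 6.49, 0.987, 12.2 and 5.73 CPM. Each of these 5 was lowest in shScramble DHT+ and highest in shTMEFF2 DHT-, as ABCA1 was. They were picked for likeness to ABCA1, so this shared order follows largely from the choice and is no finding. By the same measure the other genes of the efflux route were farther from ABCA1, with ABCG1 at 1.15, MYLIP at 1.54, NR1H3 at 1.67, NR1H2 at 1.70 and SCARB1 at 1.86. The libraries share the groups, so this likeness is a description over 12 libraries.

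**Figure D4:**
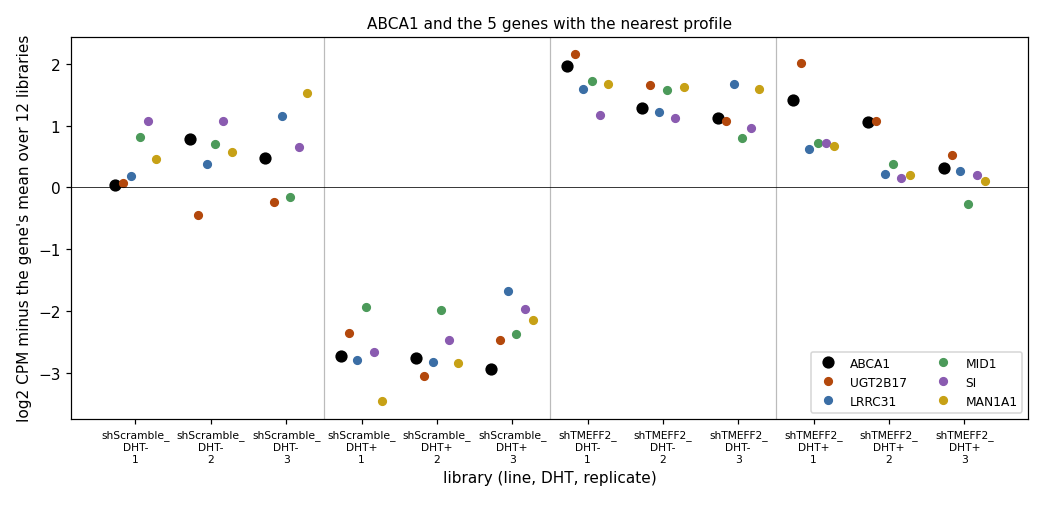
Log2 CPM of ABCA1 and the 5 genes with the nearest profile in each of the 12 libraries (points, vertical axis), each gene centred on its own mean over the libraries. All 6 genes are lowest in the 3 libraries of shScramble DHT+, where ABCA1 was at 0.539 to 0.681 CPM. The 5 were picked for likeness to ABCA1, so the shared low follows largely from the choice.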

How the data were processed

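RNA-seq of 12 LNCaP libraries was analysed. The authors checked reads of 75 bp with FastQC, trimmed them with Trimmomatic, quantified transcripts with kallisto 0.42.3 on GRCh38, and deposited estimated counts per gene, scaled by library size and transcript length, so these expected counts need not be whole. The 24 columns, 2 per library, were taken as repeat runs and summed, and 0 could not be assigned. Sums were rounded and fitted in R 4.3.3 with edgeR 4.0.16: TMM, filterByExpr (minimum count 10, total 15), 12 libraries, 1 coefficient per group, quasi-likelihood test, Benjamini-Hochberg over 15419 genes. Levels of 3 counts or less were taken as the floor. Alternatives used DESeq2 1.42.0, limma 3.58.1 (voom), other filters and scalings, single columns, a replicate block and each library left out. The test was also run on simulated counts with a common spread for all genes and no likeness between same-numbered libraries. That run checks the code and not how well the test suits these libraries.

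The 7 genes and the lists were chosen with earlier results of these data known. Named beside them are, per list and comparison, up to 3 called genes with the largest rise and fall and every called gene where 5 or fewer were called, TMEFF2, KLK3, FKBP5, the 5 profiles nearest ABCA1, and genes said to be named for another reason. The results of some genes that this rule names are not reported here, though they count in the list totals. Sequences and windows are from RefSeq (GRCh38.p14), positions from GENCODE 44.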

Additional observations from a re-analysis of the deposited data

Results flagged for a closer look

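The response to DHT differed between the lines, by edgeR's test of the difference itself (adjusted p of at most 0.05 over 15419 genes), in 14 of the 64 pathway genes tested, of which 12 are given here as shTMEFF2 minus shScramble on the log2 scale. In the SREBP pathway the differences were -1.22 for HMGCS1 (adjusted p = 0.0026), -0.91 for FDFT1 (0.0093), -0.70 for SQLE (0.0049), -0.55 for SCAP (0.0049) and 0.88 for INSIG2 (0.013). The LXR targets FASN and SCD, lipogenic enzymes, differed by -0.97 (adjusted p = 0.0073) and -0.59 (0.0093). ABCA12 differed by 1.53 (adjusted p = 0.0014) and the coactivator NCOA1 by 0.55 (0.0050).

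Of the uptake and transport genes, the lysosomal lipase LIPA differed by -0.51 (adjusted p = 0.0096), VLDLR by -0.76 (0.041) and the oxysterol binding protein OSBP by -0.45 (0.032). The call of OSBP was kept without shScramble DHT+ replicate 3 or shTMEFF2 DHT- replicate 1, and leaving out any of the other 10 libraries gave an adjusted p of 0.058 to 0.084. That of VLDLR was kept without shScramble DHT- replicate 3, shScramble DHT+ replicate 2, shTMEFF2 DHT- replicate 2 or shTMEFF2 DHT+ replicate 3, and any of the other 8 gave 0.078 to 0.101.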

How the results depend on the processing

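No value of the 7 genes that was called, and no call named for a pathway gene, changed direction under any alternative run, and 40 of 56 named calls held in all. Of the 7 genes, the count called for shTMEFF2 at DHT- was 1 by DESeq2 and 1 without the filter, against 0, and at DHT+ it was 1 from the first column and 1 by limma-voom, against 2. Pathway calls were 2 from the first column for DHT in shTMEFF2, against 4, and 0 from the first column and 0 from only the libraries of the comparison for shTMEFF2 at DHT-, against 1. The cause was not tested. From 1 of the 2 columns alone, named calls were lost for ABCA5, ABCA12 at DHT-, CYP11A1, INSIG1 and NCEH1 in shTMEFF2, CYP39A1, LRP1, MLXIPL and SOAT1, and for the differences between the responses of INSIG2, LIPA, OSBP and VLDLR. With scaling to library size alone they were lost for SOAT1, SCD at DHT+ (-0.56) and the difference of VLDLR (adjusted p = 0.073), with limma-voom for INSIG1 in shTMEFF2 (adjusted p = 0.053), and DESeq2 gave no adjusted p for CYP11A1 in shTMEFF2. With each library left out in turn, the 7 genes gave 0 to 1 calls for DHT in shTMEFF2, 1 to 2 at DHT+ and 1 to 2 for the difference between the responses, and the pathway genes gave 2 to 5 for DHT in shTMEFF2 and 0 to 1 for shTMEFF2 at DHT-. ABCG1 made these changes: it was not called for DHT in shTMEFF2 without shTMEFF2 DHT+ replicate 3, nor at DHT+ without shScramble DHT+ replicate 2 or 3 or shTMEFF2 DHT+ replicate 1 or 2, and its difference between the responses was called without shScramble DHT- replicate 3. SCARB1, at the edge of the fold limit for DHT in shScramble, was called under 10 alternatives.

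Same-numbered libraries shared a small part of their deviations: in 16 of 18 comparisons a library correlated best with its own number. The correlations themselves were weak, from -0.0017 to 0.169, with 3 of 18 over 0.1. The labels do not say whether these libraries were made as pairs, and the source of the likeness was not tested. The main fit held no term for the replicate number, so its p-values do not allow for this likeness. With a replicate block the difference between the responses was called for 2 of the 7 genes, ABCA1 and ABCG1, and for 20 pathway genes, against 14, and DESeq2 called 19. The share of all genes called was not taken under these settings, so the counts cannot be set against the whole table.

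Depth limits APOE, and leaves ABCA1 in shScramble DHT+ on 10.8 to 13.5 counts a library.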
